A study of Homo sapiens with 15 samples.

Results

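Partially methylated domains (PMDs) are stretches of the genome in which methylation of CpG cytosines is incomplete, and those described here are the autosomal stretches that lay in a PMD in every one of the 5 Baseline libraries of the HCT116 series. A base pair was kept when it was in class PMD in all 5 Baseline domain lists and in class UMR (unmethylated region) in none of them, and neighbouring base pairs were merged into pieces of at least 10 kb. This gave 7331 shared PMD pieces out of 43388 autosomal pieces of that length. The others were 25163 pieces in a highly methylated domain (HMD) in all 5 lists and 10894 pieces of mixed class. The shared PMDs covered 298 Mb, or 10.8% of the sequenced autosomes, and the shared HMDs 1379 Mb. The domain classes were called on Baseline methylation, so the Baseline level of these pieces chose them and is given as a description only. The Knockdown and Recovery libraries took no part in the choice.

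The libraries were whole-genome bisulfite sequencing of HCT116, an established human colorectal carcinoma line, carrying a doxycycline (dox)-inducible shRNA against UHRF1 or against DNMT1. Baseline cells grew for 14 days without dox, Knockdown cells for 14 days with 10 ng/mL dox, and Recovery cells for 14 days with dox and then 14 days without it, to day 28. The shUHRF1 arm was 3 lines that each grew from a single cell (Cl.3, Cl.6 and Cl.9), so each is 1 clone, and the shDNMT1 arm was 2 bulk populations (R1 and R2), with 1 library per population and stage. The labels number R1 and R2 as replicates of 1 bulk line, and nothing in them says that they were set up separately, so the spread between R1 and R2 may be technical. Every library carried an shRNA construct, and dox without a target shRNA and an uninduced day 28 were not analysed here. The shRNA, the kind of population (clone or bulk) and the count table cannot be told apart. The files hold no measure of UHRF1 or DNMT1 protein or RNA.

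DNMT1 is the methyltransferase that copies CpG methylation to the new strand after replication, and UHRF1 binds hemimethylated CpGs and recruits it by ubiquitylating histone H3. PMDs are known as late-replicating, gene-poor chromatin at the nuclear lamina, where maintenance lags behind cell division and methylation is lost in cultured and cancer cells. The CpGs that lose most in PMDs are the solo-WCGW CpGs, which have no other CpG close by and A or T on both sides. Here a CpG was called solo when none lay within 35 bp, and low-density when its nearest CpG was at least 20 bp away.

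Examples of CpGs in these domains are shown from the 3 longest pieces that were read well. They are solo-WCGW CpGs from the first and the third and a CpG with a neighbour under 10 bp away from each. Each is given as 30 bases of the plus strand of hg38 with every CpG in capitals. The pieces were picked for reads after the coverage was seen, and the CpGs were the first of their kind, at least 1 kb inside the piece, with 10 or more reads in all 15 libraries. The chr13 sites lie in no gene annotated by GENCODE, and the chr1 sites lie in an intron of ADGRL4, which encodes an adhesion G protein-coupled receptor.
Solo-WCGW, chr13:80527029-80527058: ctggatgaacttctCGagtaactccttcca
Close pair, chr13:80528647-80528676: cttccacCGgtaaaCGcctggctatataac
Close pair, chr13:88429225-88429254: tatgggattaagtgCGgtggcCGagtaaat
Solo-WCGW, chr1:79153941-79153970: actataagcatataCGtgcaggcacataca
Close pair, chr1:79194562-79194591: aaatatgggccaggCGCGgtggctcatgcc
In the second chr13 piece, the paired CpG at the centre of its sequence read 100% methylated at Baseline in Cl.3, Cl.6, R1 and R2 and 94.7% in Cl.9. At Knockdown it read 92.3%, 84.6% and 82.4% in Cl.3, Cl.6 and Cl.9, 57.9% in R1 and 54.8% in R2. In the first chr13 piece, the solo-WCGW CpG read 61.1% in Cl.3, 31.4% in Cl.9, 42.9% in R1 and 41.2% in R2 at Baseline, and 34.8%, 24.1%, 37.9% and 14.3% at Knockdown. The paired CpG at the centre of its sequence there read 66.7%, 96%, 60.9% and 66.7% at Baseline in the same libraries, and 69.2%, 46.7%, 26.9% and 24% at Knockdown. In Cl.6 the solo CpG went from 81.25% to 17.4% and the paired CpG from 50% to 60%. The paired CpG was thus above the solo CpG in 8 of these 10 libraries, with the reverse in Cl.6 at Baseline and R1 at Knockdown. In the chr1 piece, the solo-WCGW CpG read 46.7%, 87.5%, 92.3%, 75% and 84.6% in Cl.3, Cl.6, Cl.9, R1 and R2 at Baseline and 70%, 61.9%, 36.4%, 22.2% and 33.3% at Knockdown, so that it was higher at Knockdown in Cl.3. The paired CpG there read 94.1% to 100% at Baseline and 60% to 93.3% at Knockdown. Single CpGs rest on 10 to 35 reads, and their 95% Wilson intervals reach 26.3 percentage points either way, so the results below use sums over pieces.

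The methylation level (mC) of a group of pieces is the methylated reads over all reads summed over its CpGs. Each library had between 309268341 and 577680690 reads at the 27852739 autosomal CpGs, and between 25387551 and 47294186 of them lay in the shared PMDs, which gives 95% Wilson intervals of at most 0.0194 percentage points either way. Intervals cover counting error only, since PCR reads are not independent molecules. A number of pieces were barely read: 776 pieces (10.6%) had 5 or more reads in all 15 libraries at under 50% of their CpGs. They held 23.3% of the length and 35.4% of the CpGs but 2.03% of the reads. They include 4 of the 5 longest pieces, which sit on the centromeric repeat models of chromosomes 18, 11, 12 and 5 and had 0 to 1258 reads per library. The other 6555 pieces (229 Mb) are called pieces with reads, and levels below sum the reads of all pieces unless stated.

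The shared PMD pieces were mostly short. Their median length was 20.2 kb, with quartiles of 13.9 and 35.1 kb, and 263 pieces were 100 to 200 kb and 127 were 200 kb or more. Those 127 pieces held 83.6 Mb, or 28.0% of the length. Of the 14662 ends of pieces, 6944 (47.4%) abutted a UMR of any Baseline list and 3519 (24.0%) an HMD of any Baseline list, which need not be a shared HMD. All shared PMD pieces together had 9.76 CpGs per kb, with 55.02% low-density and 12.9% solo-WCGW CpGs, close to the 10.1, 54.2% and 12.0% of shared HMDs. Pieces with reads had 8.21 CpGs per kb, 61.9% low-density and 15.4% solo-WCGW CpGs, against 9.84, 55.2% and 12.3% in the 23806 shared HMD pieces with reads. Chromosome 13 had the largest share of its sequence in shared PMDs, at 28.2%, and chromosome 4 the smallest, at 5.74%. At the 10 kb limit of the rule, the 544 pieces of 10 to 11 kb had an mC of 54.7%, 25.6% and 30.5% in Cl.9 at Baseline, Knockdown and Recovery, and the 551 stretches of 9 to 10 kb just outside it had 54.1%, 25.1% and 29.9%.

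At Baseline the shared PMDs were alike in 4 of the 5 populations and lower in Cl.9. Their mC was 63.6% in Cl.3, 64.7% in Cl.6, 59.9% in Cl.9, 63.5% in R1 and 63.6% in R2. The shared HMDs had 93.3%, 94.1%, 91.6%, 92.9% and 92.9% in the same libraries. The pieces thus carried intermediate methylation, as their class name says, which the rule itself selected.

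Knockdown lowered the shared PMDs in every population, and the clones lost very different amounts. Their mC was 49.3% in Cl.3, 43.2% in Cl.6 and 27.4% in Cl.9 at Knockdown, against 31.8% in R1 and 31.2% in R2. Cl.9 was thus below both bulk populations, and Cl.3 and Cl.6 above them. The change was -14.3, -21.5 and -32.4 percentage points in the clones, in the same order (mean -22.7 ± 9.12, SD, n = 3 clones). For R1 it was -31.8 points and for R2 -32.4 points (mean -32.1 ± 0.417, SD, n = 2). The difference between the arms, 9.32 points, did not pass (exact permutation over the 10 splits of 3 against 2, two-sided p = 0.6, smallest possible 0.2). It was 5.11 points without Cl.3, 14.2 without Cl.9 and between 8.69 and 9.61 without any other population. Within 1 arm the exact sign-flip test cannot go below p = 0.25 for 3 clones or 0.5 for 2 populations, which are the values it gave. As a share of the Baseline level, mC fell by 22.5% in Cl.3, fell by 33.2% in Cl.6, fell by 54.2% in Cl.9, fell by 50.002% in R1 and fell by 50.9% in R2. The choice of pieces on the same Baseline libraries moved these values little, and most in Cl.9: with pieces chosen from the 4 other Baseline lists, the change was -14.2, -21.4 and -30.5 points in the clones, -31.6 in R1 and -32.3 in R2. The set itself depended on Cl.9: it held 12647 pieces (478 Mb) without the list of Cl.9, against 7410 to 7849 without that of another population.

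**Figure D1:**
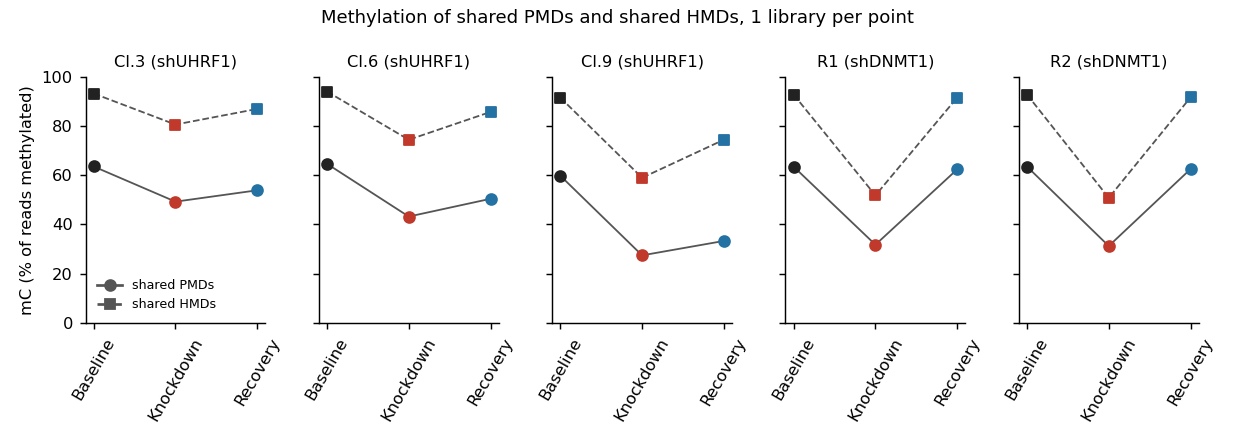
Methylation level (percent of reads methylated, y axis) of shared PMDs (circles, solid line) and shared HMDs (squares, dashed line) at Baseline, Knockdown and Recovery, with 1 panel per population and 1 library per point. Shared PMDs of R1 and R2 returned to 62.5% and 62.6% at Recovery, while those of Cl.9 stayed at 33.3%.

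After 14 days without dox the arms parted. Shared PMDs of R1 and R2 rose to 62.5% and 62.6%, a difference from Baseline of -1.08 and -1.03 points. Those of the clones rose to 53.9% in Cl.3, 50.5% in Cl.6 and 33.3% in Cl.9. The rise was 4.63 points in Cl.3, 7.23 in Cl.6 and 5.87 in Cl.9 (mean 5.91 ± 1.30, SD, n = 3). R1 rose by 30.7 and R2 by 31.3 points (mean 31.0 ± 0.454, SD, n = 2). Every clone rose less than both bulk populations, and the difference of -25.1 points reached the smallest p this design allows (exact permutation, two-sided p = 0.2). The share of the lost methylation that was regained was 32.3%, 33.7% and 18.1% in Cl.3, Cl.6 and Cl.9 against 96.6% and 96.8% in R1 and R2. The means were 28.0 ± 8.64 (SD, n = 3) and 96.7 ± 0.159 (SD, n = 2), with no overlap (difference -68.7 points, exact permutation, two-sided p = 0.2). Relative to Baseline, the level at Recovery differed by -9.69, -14.2 and -26.6 points in the clones.

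The arms differed in how the fall of shared PMDs compared with that of shared HMDs. Baseline levels chose both classes, so the falls compared here and their p-values carry that choice. The check with the own Baseline list left out was made for PMDs only and does not cover this comparison. In the bulk populations the PMDs fell less, with a change in PMDs minus that in HMDs of 9.26 points for R1 and 9.71 for R2. In the clones this difference was small, at -1.68 points in Cl.3, -1.84 in Cl.6 and 0.196 in Cl.9. It averaged -1.11 ± 1.13 points over the clones (SD, n = 3) against 9.49 ± 0.321 over the bulk populations (SD, n = 2), and every clone lay below both bulk populations (exact permutation, two-sided p = 0.2, the smallest possible). Over the 5 populations it was 3.13 ± 5.86 points (exact sign-flip permutation, two-sided p = 0.4375) and turned to -1.34 when LMR (low-methylated region) base pairs were removed as well. The level of shared PMDs minus shared HMDs at Knockdown was -31.4, -31.3 and -31.6 points in the clones, but -20.1 for R1 and -19.6 for R2. As a share of the Baseline level, however, PMDs lost more than HMDs in all 5 populations. The relative change of the HMDs was -13.5%, -20.9%, -35.6%, -44.2% and -45.3% in Cl.3, Cl.6, Cl.9, R1 and R2. On the log2 odds of methylated to unmethylated reads, PMDs fell less than HMDs in all 5 populations. The change was -0.85, -1.27, -1.98, -1.90 and -1.94 in PMDs, in the same order, and -1.74, -2.46, -2.93, -3.60 and -3.66 in HMDs. Which class lost more thus depends on the scale.

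The return to Recovery was smaller in shared PMDs than in shared HMDs in 5 of 5 populations. The rise in PMDs minus that in HMDs was -1.73 points in Cl.3, -4.11 in Cl.6, -9.63 in Cl.9, -9.17 in R1 and -9.59 in R2 (mean -6.84 ± 3.68, SD, n = 5, exact sign-flip permutation, two-sided p = 0.063, the smallest that 5 populations allow). The share regained in HMDs was 50.3%, 57.8% and 47.5% in the clones, with 97.1% and 97.3% in R1 and R2. In the clones, therefore, HMDs regained a larger share than PMDs, with the widest gap in Cl.9. In the bulk populations the 2 domain classes regained nearly the same share. The level of PMDs minus HMDs at Recovery came to -33.1, -35.4 and -41.2 points for Cl.3, Cl.6 and Cl.9 and -29.2 points in R1 and in R2, against -29.3 points at Baseline in each of the latter.

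Piece by piece, the fall at Knockdown was general. Of the 7331 pieces, 6981 had at least 50 reads in every library and entered edgeR's quasi-likelihood test, in 1 fit with all 42952 tested pieces and with the population as a block. The fit estimated the spread from all 15 libraries, so its p-values in the clones rest on R1 and R2 too. At an adjusted p (Benjamini-Hochberg) under 0.05, 6980 shared PMD pieces fell in the clones, against 100% of all pieces tested, and 6981 in the bulk populations, where the background was also 100%. From Knockdown to Recovery all 6981 rose in the bulk populations, again with a background of 100%. In the clones 936 rose (13.4%), against 72.7% of all pieces tested and 25088 of 25161 shared HMD pieces. Between Baseline and Recovery, 6955 were lower in the clones, against 99.8% of all pieces. In the bulk populations 0 were called lower by edgeR, with a background of 0%, and limma called 1, against 11 over all pieces. An unadjusted p under 0.05 in either direction was found in 10, and was not counted over all pieces.

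The test works on log odds, on which the rise of the clones was small in PMDs. It was 0.27, 0.42 and 0.40 (log2 odds) in Cl.3, Cl.6 and Cl.9 for shared PMDs against 0.69, 1.05 and 1.02 for shared HMDs. The count of 936 moved with single populations. It became 3642 without Cl.3 (84.6% of all pieces tested), 16 without Cl.6 (28.8%), 2908 without Cl.9 (81.7%), and 146 without R1 or without R2 (61.6% each), so the count over all pieces moved too. Without the population block it was 0 both in the shared PMDs and over all pieces. Among pieces with reads, 845 of 6555 were called (12.9%), against 73.1% of all such pieces. By length, 12.9% of shared PMD pieces of 10 to 20 kb, 14.8% of 20 to 50 kb and 2.22% (2 of 90) of 200 kb or more were called, against 60.9%, 75.9% and 91.1% of all pieces with reads. With the pieces of few reads included, 16 of 112 shared PMD pieces of 200 kb or more were called (14.3%), against 90.6% of all pieces of that length. A smaller fall in the clones than in the bulk populations was called by the interaction term of the same test in 684 shared PMD pieces (9.80%), against 69% of all pieces tested, and a larger fall in 0, against 0.00233% of all pieces. An unadjusted p under 0.05 in either direction was found in 1121 shared PMD pieces, the 684 included, and was not counted over all pieces. Without Cl.3, a larger fall in the clones was called in 6 shared PMD pieces and in 9 over all pieces. The count of 684 moved with single populations as well. It became 378 without Cl.3 (62.7% of all pieces tested), 41 without Cl.6 (42.3%) and 6539 without Cl.9 (97.6%). Without R1 or without R2 it was 0, with 4 and 2 calls over all pieces, and without the population block it was 0 both in the shared PMDs and over all pieces.

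The pieces differed widely in level but moved together. Over the 6555 pieces with reads, all were lower at Knockdown than at Baseline in each of the 5 populations. Between Knockdown and Recovery 96.3%, 99.4% and 99.5% of pieces rose in Cl.3, Cl.6 and Cl.9 and 100% in R1 and R2. The middle 90% of pieces lay between 45.5% and 77.6% mC in R1 at Baseline, between 21.8% and 39.0% at Knockdown and between 44.7% and 75.9% at Recovery. The SD over pieces in R1 was 9.91, 5.26 and 9.69 points at the 3 stages, so that the spread narrowed at Knockdown and widened again. In Cl.3 it hardly narrowed, with 10.2, 9.05 and 10.2 points, while in Cl.9 it went from 10.9 to 6.71 and 8.82 points. In Cl.6 it went from 10.8 to 9.85 and 11.9 points, and so was wider at Recovery than at Baseline. The median counting error of a piece was 0.640 to 1.00 points, far below these spreads.

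**Figure D2:**
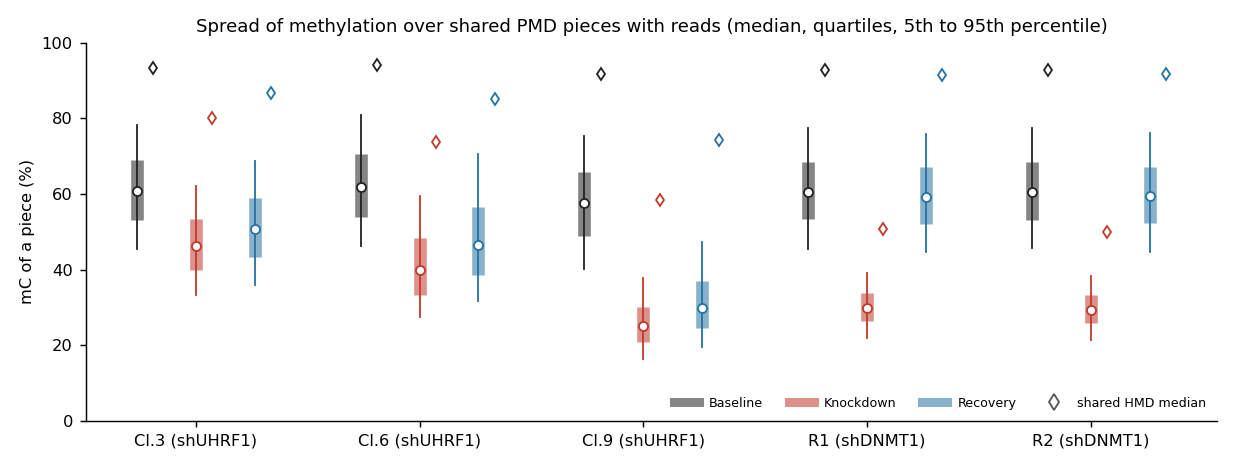
Methylation of single shared PMD pieces with reads (percent, y axis) by population and stage, with the median (white circle), the quartiles (thick bar) and the 5th to 95th percentile (thin line) over 6555 pieces; diamonds mark the median of shared HMD pieces. In R1 and R2 the pieces drew together at Knockdown and spread out again, and in Cl.9 the median piece stood at 25.0% at Knockdown and 29.8% at Recovery.

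The order of the populations was the same in most pieces. Cl.9 was below Cl.6 and Cl.6 below Cl.3 at Knockdown in 5435 of 6555 pieces (82.9%). Cl.3 and Cl.6 were both above the bulk populations at Knockdown in 6467 pieces (98.7%), and Cl.9 was below both in 5488 (83.7%). At Recovery every clone was below both bulk populations in 5610 pieces (85.6%). These orders were not counted over all pieces or in shared HMDs, so they are not shown to be particular to shared PMDs. The median share of loss regained per piece was 30.9%, 31.4% and 16.0% in Cl.3, Cl.6 and Cl.9, with 96.3% and 96.6% in R1 and R2, against 50.3%, 56.9%, 47.4%, 97.2% and 97.3% in shared HMD pieces.

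Pieces were ordered more alike within a clone than between clones. Across the 3240 pieces of at least 20 kb with reads, the Pearson correlation of mC between Baseline and Recovery was 0.947 in Cl.3, 0.943 in Cl.6 and 0.799 in Cl.9. Between clones at Baseline it was 0.596 to 0.702, while R1 and R2 correlated at 0.991. Pieces share base composition and CpG spacing across libraries, and these correlations are descriptions across pieces, not across independent samples. At single CpGs the clones were closer to all or none than the bulk populations. Among the 894620 CpGs with 10 or more reads in every library, 43.9% in Cl.3, 42.3% in Cl.6 and 38.9% in Cl.9 had an mC of at least 0.85 at Baseline, against 36.1% in R1 and 36.2% in R2. CpGs under 0.1 made up 16.3%, 13.8% and 15.9% in the clones, against 8.55% and 8.25%.

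Fewer CpGs were highly methylated at Knockdown in every population. Those of at least 0.85 made up 16.2%, 7.69% and 1.17% in Cl.3, Cl.6 and Cl.9 at Knockdown, and just 0.387% of CpGs in R1 and 0.338% in R2. At Recovery they made up 24.6%, 18.4% and 4.62% in the clones and 33.8% in both bulk populations. In Cl.9, 34.4% of CpGs were under 0.1 at Knockdown and 30.0% at Recovery. CpGs of at least 0.85 became fewer in shared HMDs too, so their loss was not particular to shared PMDs. Among the 5191331 shared HMD CpGs with 10 or more reads in every library, they made up 88.2% to 90.96% at Baseline. At Knockdown they made up 52.4%, 33.96% and 13.4% there in Cl.3, Cl.6 and Cl.9, with 2.70% in R1 and 2.38% in R2.

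Longer pieces were slightly higher in methylation. Pieces of 100 kb or more had a Baseline mC 4.87 to 6.17 points above pieces of 10 to 20 kb in the 5 populations, which belongs to the choice of the pieces. At Knockdown the long pieces were 5.24, 6.93 and 4.48 points higher in Cl.3, Cl.6 and Cl.9, with 3.64 and 3.61 points higher in R1 and R2 (mean 4.78 ± 1.38, SD, n = 5, exact sign-flip permutation, two-sided p = 0.063). At Recovery they were 5.56, 7.99 and 6.21 points higher in the clones, with 4.77 and 4.58 in R1 and R2 (mean 5.82 ± 1.37, SD, n = 5, exact sign-flip permutation, two-sided p = 0.063). The fall itself differed by -0.51 ± 0.900 points between long and short pieces (SD, n = 5, exact sign-flip permutation, two-sided p = 0.3125), with both signs among the clones. The rise to Recovery was 1.04 ± 0.501 points larger in long pieces (SD, n = 5, exact sign-flip permutation, two-sided p = 0.063). These differences turn around when UMR base pairs are kept in the pieces, to -0.28 points at Knockdown, -1.18 at Recovery and -0.90 for the rise, and the rise also turns to -0.10 within high-density CpGs. Short pieces also held more LMR length at Baseline, 27.0% to 32.5% in pieces of 10 to 20 kb. The groups of 100 to 200 kb and of 200 kb or more held 4.02% to 13.3%. With LMR base pairs removed too, the difference in fall changed sign, as given below. The causes were not tested.

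The pieces of 200 kb or more were the highest of the 5 length groups at Knockdown. At Knockdown they had 53.5% in Cl.3, 47.8% in Cl.6 and 32.6% in Cl.9, with 35% in R1 and 34.5% in R2, against 46.8%, 40.0%, 25.8%, 30.2% and 29.7% in pieces of 10 to 20 kb. Pieces of 100 to 200 kb were much nearer to the short ones in Cl.9, with 27.4% at Knockdown. Among pieces with reads, those of 200 kb or more lost 46.5% of their Baseline level in Cl.9 and regained 27.0% of the loss, while those of 100 to 200 kb lost 55.9% and regained 17.2%. The makeup of the long pieces depends on the pieces of few reads. Over all pieces, those of 200 kb or more had 10.4 CpGs per kb against 10.2 in pieces of 10 to 20 kb, and 50.5% low-density CpGs against 55.2%. Among pieces with reads, where the long pieces were also higher in mC, the 90 pieces of 200 kb or more with reads had 6.14 CpGs per kb and 21.3% solo-WCGW CpGs, against 9.84 and 12.4% in pieces of 10 to 20 kb. Within low-density CpGs alone, pieces with reads of 200 kb or more had 26.5% in Cl.9 at Knockdown against 17.1% in the shortest pieces, and within high-density CpGs 47.9% against 38.4%.

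**Figure D3:**
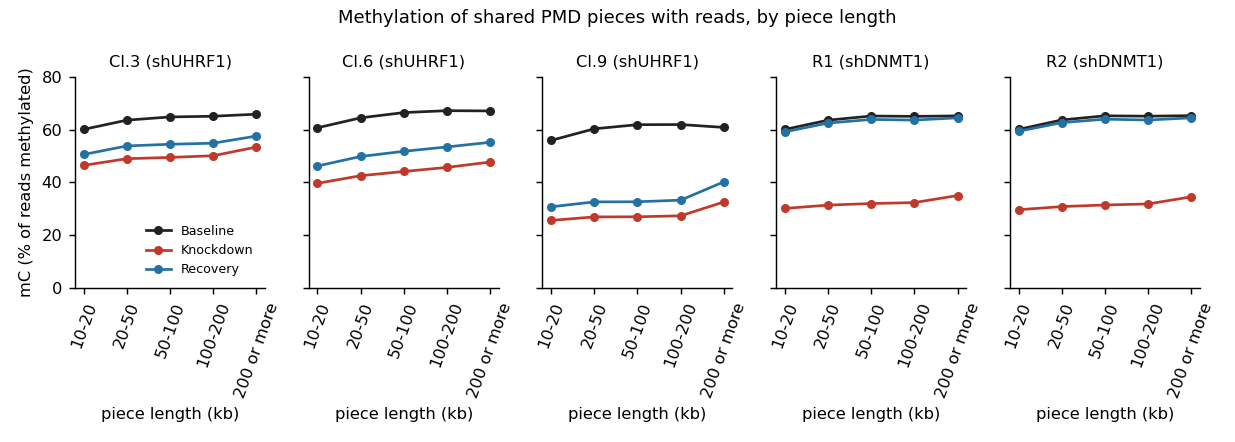
Methylation level (percent of reads methylated, y axis) of shared PMD pieces with reads by piece length (x axis, kb), with 1 panel per population and 1 line per stage. In Cl.9 the longest bin had 32.6% at Knockdown and 40.2% at Recovery, against 27.3% and 33.3% in the bin before it.

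The distance to the nearest CpG ordered the levels within the shared PMDs at every stage. CpGs 2 to 4 bp from another CpG had 85.5%, 75.9% and 80.1% in Cl.3 at Baseline, Knockdown and Recovery, 82.3%, 53.9% and 62.1% in Cl.9 and 84.95%, 51.6% and 84.3% in R1. CpGs 70 bp or more from another CpG had 50.9%, 36.8% and 41.2% in Cl.3, 47.8%, 18.5% and 23.4% in Cl.9 and 50.9%, 23.6% and 49.6% in R1. The lowest were the solo-WCGW CpGs as a group, with 39.9%, 25.4% and 29.4% in Cl.3, 42.3%, 22.96% and 28.4% in Cl.6, 36.5%, 10.8% and 14.4% in Cl.9 and 40.1%, 16.7% and 38.6% in R1. The single sites printed above need not follow the group: the chr1 site read 92.3% in Cl.9 at Baseline. Solo CpGs with G or C on both sides had 67.7%, 53.4% and 58.8% in Cl.3 and 64.3%, 30.1% and 37.0% in Cl.9. Among solo CpGs, those with A or T on both sides were thus the lower ones.

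Low-density CpGs were already lower than high-density CpGs at Baseline. They had 55.8% against 78.6% in Cl.3, 57.0% against 78.8% in Cl.6 and 52.1% against 74.5% in Cl.9. In R1 they had 55.8% against 78.1%, and in R2 55.9% against 78.1%. Low-density minus high-density CpGs at Knockdown gave -25.1 points in Cl.3, -22.9 in Cl.6, -20.9 in Cl.9, -16.9 in R1 and -16.6 in R2 (mean -20.5 ± 3.74, SD, n = 5, exact sign-flip permutation, two-sided p = 0.063). In the fall to Knockdown the populations went different ways. The change in low-density CpGs minus that in high-density CpGs was -2.34 points in Cl.3 and -1.14 in Cl.6, where low-density CpGs fell more, but 1.40 in Cl.9, 5.32 in R1 and 5.63 in R2, where they fell less (exact sign-flip permutation over 5 populations, two-sided p = 0.375). Its mean over the 5 turned to -2.66 when LMR base pairs were removed as well. As a share of the Baseline level, low-density CpGs fell more than high-density CpGs in all 5 populations, with relative changes of -27.7% against -16.7% in Cl.3, -38.3% against -26.3% in Cl.6, -61.7% against -45.1% in Cl.9, -54.1% against -45.5% in R1 and -55.1% against -46.6% in R2. Every clone lay below both bulk populations in the difference in points, with a difference of -6.16 points between the means (exact permutation of 3 against 2, two-sided p = 0.2, the smallest possible). From Knockdown to Recovery low-density CpGs rose less in 5 of 5 populations, with differences of -0.108 points in Cl.3, -0.923 in Cl.6, -2.23 in Cl.9, -5.64 in R1 and -5.93 in R2 (exact sign-flip permutation, two-sided p = 0.063).

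**Figure D4:**
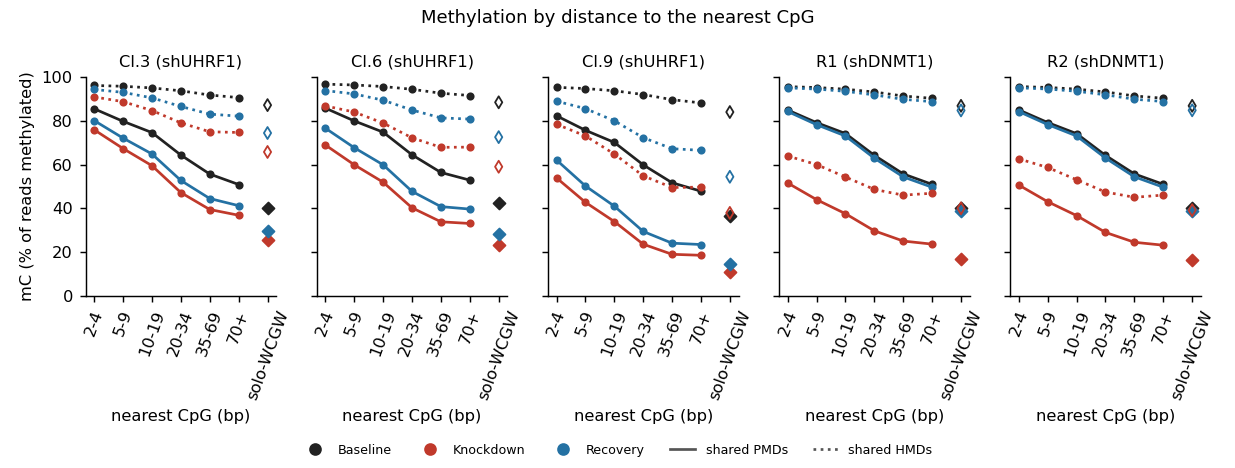
Methylation level (percent of reads methylated, y axis) by distance to the nearest CpG (x axis, bp) and for solo-WCGW CpGs (diamonds, last position), in shared PMDs (solid lines) and shared HMDs (dotted lines) at 3 stages, with 1 panel per population. In shared PMDs of Cl.9 at Knockdown the level went from 53.9% for CpGs 2 to 4 bp apart to 10.8% for solo-WCGW CpGs.

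The level near the end of a piece differed with what lay beyond it. An end counted as next to a UMR or an HMD when any Baseline list called that class there. In pieces of at least 50 kb with reads, the outer 2.5 kb next to an HMD had 74.7% in Cl.3, 71.7% in Cl.9 and 74.8% in R1 at Baseline. The outer 2.5 kb next to a UMR had 64.4%, 61.0% and 63.9%. At Knockdown the same margins had 58.8%, 33.8% and 38.0% next to HMDs and 49.9%, 28.4% and 32.3% next to UMRs. More than 50 kb inside, on the side of an HMD, the level was 67.9%, 64.3% and 67.2% at Baseline. The HMD side was thus higher at the margin than deep inside at Baseline in these 3 populations. Baseline calls drew these ends, so the Baseline levels are a description only. Low-density CpGs made up 61.3% of the CpGs in the outer 2.5 kb next to an HMD and 58.2% next to a UMR. More than 50 kb inside, on the side of an HMD, they made up 68.7%. The part of CpG density in these levels was not tested.

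The domain lists of the later libraries called much of the shared PMD length as UMR at Knockdown. The UMR share was 14.2% in Cl.3, 28.6% in Cl.6 and 79.5% in Cl.9 (mean 40.8 ± 34.3, SD, n = 3), while R1 had 78.1% and R2 80.9% (mean 79.5 ± 1.99, SD, n = 2). Without Cl.9 the mean of the clones was 21.4%. At Recovery it was 7.71%, 14.3% and 57.8% in the clones (26.6% on average, and 11.0% without Cl.9), while R1 had 1.07% and R2 1.63%. The CpGs inside these UMRs were not unmethylated, with 29.5%, 28.3% and 23.6% in Cl.3, Cl.6 and Cl.9 at Knockdown, while R1 had 28.5% and R2 28.3%, with the rest of the pieces between 46.0% and 52.3%.

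The class PMD was called over much of the length in the clones at Knockdown and over little of it in the bulk populations, but in Cl.9 it mostly overlapped UMR calls. It covered 75.8%, 73.4% and 61.2% of the shared PMD length in Cl.3, Cl.6 and Cl.9 at Knockdown, against 3.71% and 2.88% in R1 and R2. At Recovery it covered 87.1%, 86.8% and 68.2% in the clones, with 99.8% and 99.9% in the bulk populations. A base pair may be in several classes. With each base pair counted once, UMRs and LMRs first, the PMD share at Knockdown was 54.5% in Cl.3, 46.2% in Cl.6 and 14.6% in Cl.9 (38.4% on average) and 0.597% on average in the bulk populations. At Recovery it was 51.6% and 82.9% on average. The PMD call covered more of the longer pieces: in Cl.3 at Knockdown it covered 41.8% of the length of pieces of 10 to 20 kb and 99.7% of pieces of 200 kb or more, or 28.4% and 77.1% counted once. In Cl.9 it covered 30.1% and 96.9%, but 5.87% and 23.04% counted once, since UMRs covered 72.5% of the pieces of 200 kb or more. At Baseline the counted-once shares of these length groups were 73.0% and 94.7% in Cl.3 and 67.5% and 90.2% in Cl.9. Of the 83.6 Mb in pieces of 200 kb or more, 44.96 Mb lay in the 90 pieces with reads, so the other part of that length is sequence with few reads. At Knockdown 28.1% of that length was in no class in R1 and 26.2% in R2, against at most 0.165% in the clones. The part of the pieces of few reads in these shares by length was not tested. Of the 7331 pieces, 6665 (90.9%) in Cl.9, 6854 (93.5%) in R1 and 6939 (94.7%) in R2 were at least 50% UMR at Knockdown, against 1105 (15.1%) in Cl.3 and 2895 (39.5%) in Cl.6. The class shares and these counts were not taken over all pieces or in shared HMDs. They are therefore not shown to be particular to shared PMDs. The settings of the caller were not stated, and each library was called alone, and the part of the caller in these shares was not tested.

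**Figure D5:**
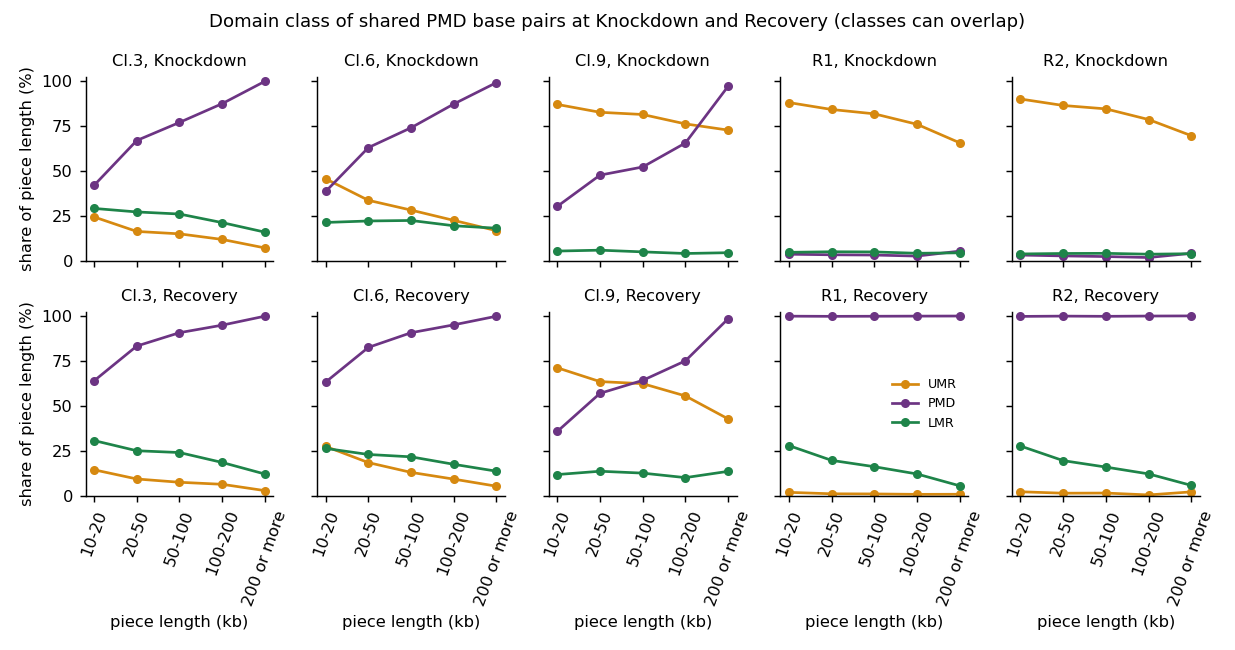
Share of the length of shared PMD pieces (percent, y axis) that the domain lists of each Knockdown library (upper row) and Recovery library (lower row) called UMR, PMD or LMR, by piece length (x axis, kb). In R1 at Knockdown the PMD share was 2.47% in pieces of 100 to 200 kb and 5.24% in those of 200 kb or more, while in Cl.3 it went from 41.8% to 99.7% between the shortest and the longest bin. Pieces of few reads are included.

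The longest piece with reads was chr13:80521507-84614735 (hg38), 4093 kb with 22704 CpGs and a single whole protein-coding gene, SLITRK1, which encodes a neuronal membrane protein. Its mC at Baseline, Knockdown and Recovery was 64.6%, 53.7% and 57.3% in Cl.3, 66.9%, 48.5% and 55.5% in Cl.6 and 59.3%, 34.4% and 42.5% in Cl.9. R1 had 63.7%, 35.9% and 63.6%, and R2 64.0%, 35.5% and 63.4%. The change at Knockdown in the clones was -18.0 ± 6.96 points (SD, n = 3). It passed in edgeR's quasi-likelihood test (Benjamini-Hochberg adjusted p = 1.5e-07), whose spread was estimated from all 15 libraries and not from the clones alone. The rise to Recovery, 6.21 ± 2.29 points, did not pass in the same test (adjusted p = 0.089). The next longest with reads were chr13:88421163-90210105 (1789 kb, no gene inside), chr1:79152764-80699289 (1547 kb, overlapping ADGRL4), chr13:67260630-68400291 (1140 kb) and chr14:46423503-47534999 (1111 kb), which holds RPL10L, a ribosomal protein retrogene. Their mean change in the clones lay between -21.8 and -18.4 points, and their rise to Recovery, 6.11 to 6.49 points, did not pass in any of them (edgeR adjusted p between 0.098 and 0.12).

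Among the 1094 pieces of 50 kb or more, the extremes by size of change were pieces with few reads. The 3 largest falls called in the clones were on chr21:6051529-6161371, chr4:9157805-9272916, which holds copies of the deubiquitinase gene USP17, and chr21:6789086-6934219, with changes of -37.0, -36.6 and -35.2 points on 63 to 257 reads per library. The 3 smallest were on chr9:65130083-65322333, which holds FOXD4L5, chr9:66291954-66391387 and chr2:87744142-87825528, with -7.42, -8.73 and -11.4 points on 63 to 365 reads. The 3 largest rises were on chr15:85192434-85247711, chr21:6051529-6161371 and chr16:30191434-30277227, with 21.8, 20.0 and 16.5 points on 58 to 310 reads. In these pieces at most 0.471% of the CpGs had 5 or more reads in all 15 libraries, and USP17 and FOXD4L genes have close copies between which the counting could split reads, so their values are uncertain.

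With the same rule applied to pieces with reads, which was decided after the values were seen, the largest falls were on chr8:62188416-62247977 (-34.5 ± 14.4 points, SD, n = 3), chr5:153511989-153581595 (-33.3 ± 9.59), overlapping the glutamate receptor gene GRIA1, and chr2:118379484-118435427 (-33.2 ± 11.0). The smallest falls were 3 pieces close together on chr6, at 93897465-93953417, 94097293-94167711 and 94532700-94601879, with -15.8, -15.4 and -15.8 points. The middle one of these went from 81.2% to 74.1% and back to 80.8% in Cl.3, from 61.8% to 44.9% and 52.9% in Cl.6 and from 52.2% to 30.1% and 38.1% in Cl.9. In R1 it went from 48.8% to 29.5% and 46.7%, and in R2 from 48.5% to 27.3% and 47.5%. Cl.3 was thus far above the other populations in that piece at every stage, Baseline included. The largest rises were on chr5:97595148-97646101 (10.9 ± 4.07), chr1:232254228-232307641 (10.9 ± 2.98) and chr5:98085343-98203886 (10.7 ± 3.65).

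Few genes started in the shared PMDs. Of 19111 autosomal protein-coding genes, 656 (3.43%) started in a shared PMD piece and 4016 (21.0%) in a shared HMD piece. This is 2.20 gene starts per Mb in shared PMDs (1.73 in the shared PMD pieces with reads) and 2.91 in shared HMDs. Base pairs of UMRs, where many promoters lie, were left out of both, so nothing is read from these densities about the rest of the genome, and the difference between them was not tested. Of the 887 pieces of 50 kb or more with reads, 790 (89.1%) held no gene start. The 656 genes lay in 489 pieces whose mC was 65.5%, 51.5% and 56.1% in Cl.3, 66.3%, 44.8% and 52.2% in Cl.6, 61.7%, 29.5% and 36.1% in Cl.9 and 65.7%, 33.4% and 64.7% in R1. All shared PMDs had 63.6%, 49.3% and 53.9% in Cl.3 and 64.7%, 43.2% and 50.5% in Cl.6, and the difference was not tested.

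Gene families differed in the share of their starts that lay in shared PMDs, which was not tested, against 3.43% of all genes. Starts in UMRs were left out of both domain classes here too. A low share in shared PMDs may therefore go with a low share in shared HMDs, and the shares do not show enrichment. Defensins, which encode antimicrobial peptides, had 18 of 46 starts in shared PMDs (39.1%), olfactory receptors 43 of 415 (10.4%) and keratins with keratin-associated proteins 13 of 152 (8.55%). In shared HMDs the same families had 7 (15.2%), 38 (9.16%) and 70 starts (46.1%), against 21.0% of all genes. These family members share pieces: the 18 defensins lay in 11 pieces, the 43 olfactory receptors in 33 and the 13 keratin genes in 4. The counts include pieces with few reads, whose class rests on little data. The pieces with DEFB130B and with OR4F29 had no mC value in most libraries. Zinc finger genes had 19 of 504 (3.77%), solute carriers with UDP-glucuronosyltransferases 7 of 393 (1.78%), and cadherins 2 of 91 (PCDHB2 and CDH13). Genes with the symbol prefix of cytosolic ribosomal proteins had 2 of 93, RPL10L and RPSA2, and proteasome subunits 0 of 49. Taste receptors had 0 of 24, while 18 of them started in shared HMDs. In shared HMDs zinc finger genes had 42 starts (8.33%), solute carriers with UDP-glucuronosyltransferases 121 (30.8%) and cadherins 18 (19.8%). The ribosomal protein genes had 6 (6.45%) and the proteasome subunits 6 (12.2%) there.

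The 33 pieces with olfactory receptors had 62.7%, 47.2% and 51.6% in Cl.3, 60.9%, 24.9% and 30.1% in Cl.9 and 62.9%, 30.1% and 61.1% in R1. In Cl.6 they had 61.1%, 38.2% and 45.02%, which is lower at each stage than the 64.7%, 43.2% and 50.5% of all shared PMDs. In Cl.3 at Baseline the gap was small, with 62.7% against 63.6%. In Cl.9 at Baseline they were higher than all shared PMDs, with 60.9% against 59.9%, the only library where this was so. These differences were not tested. Single pieces differed more. The 118 kb piece on chromosome 7 with OR2A42, OR2A7 and OR2A1, receptor genes with close copies whose reads are uncertain, had 89.8%, 76.0% and 81.9% in Cl.3 and 86.7%, 53.5% and 68.8% in Cl.9. The 23.9 kb piece with OR5H6 and OR5H2 had 83.3% in Cl.3 and 78.2% in Cl.9 at Baseline but 60.1% in Cl.6, and 67.3%, 45.7% and 39.7% at Knockdown. The 17.6 kb piece at GABRA2, a GABA receptor subunit, had 53.1%, 40.0% and 44.2% in Cl.3. These genes were picked after their values were seen.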

How the data were processed

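The 15 HCT116 libraries were grouped by shRNA, population and stage from the labels. The authors deposited raw counts of methylated and of all reads per CpG of hg38 (Meth10X, no coverage filter; treatment of duplicates and variants not stated) and 15 domain lists (MethylSeekR, settings not stated; HMDs from bedtools 2.25.0 with a mean mC of at least 0.8). Other values were computed here from these 3 count tables and lists. The study's replication timing and histone data were not used here.

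The members, gene groups, tests and named regions were chosen with earlier results of these data known. Pieces, levels, CpG spacing and GENCODE 44 gene starts were computed in Python 3.11.15 with numpy 2.4.6. Changes were compared within populations by exact permutation tests. The exact p-values treat each clone or bulk population as 1 unit, R1 and R2 included. At its smallest possible value, an exact p shows only that the values had the same sign or did not overlap. It does not measure how far they spread. The p-values of edgeR and limma use a spread estimated from all 15 libraries, so R1 and R2, whose spread may be technical, enter the tests in the clones. All pieces with 50 reads in every library were tested with edgeR 4.0.16 (R 4.3.3, methylated and unmethylated counts, population as block), with limma 3.58.1 on log2((methylated + 1)/(unmethylated + 1)) as an alternative; both were tested on simulated counts. Regions named were the 5 longest pieces and, among called pieces of 50 kb or more, the 3 largest and smallest falls and the 3 largest rises in the clones, with genes wholly inside. The pairing comes from the clone names and, in the bulk arm, from the replicate numbers in the labels. Deviations from the group mean over pieces correlated at 0.733 to 0.958 between stages in the clones and 0.00783 to 0.0197 in R1 and R2. R1 and R2 were counted as 2 samples because the labels number them as replicates and the study treats them as separate bulk populations. Their mean chi-square per piece was 1.53 to 2.54, and since reads are not independent this does not show how far they differ. The alternatives were other piece rules, CpG subsets, single populations left out and the fit without the block. A site and a gene group are not reported here.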

Additional observations from a re-analysis of the deposited data

Results flagged for a closer look

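In 684 of the 6981 shared PMD pieces tested (9.80%), the fall at Knockdown was smaller in the shUHRF1 clones than in the shDNMT1 bulk populations by the interaction term of edgeR's quasi-likelihood test (Benjamini-Hochberg adjusted p under 0.05), against 69% of all pieces tested and 24829 of 25161 shared HMD pieces. The 684 pieces had a median length of 18.5 kb, and 576 of them had reads as defined for the pieces with reads. They had a higher Baseline level than the other tested pieces, 74.3%, 73.7%, 69.8%, 75.6% and 75.5% against 62.6%, 63.8%, 58.9%, 62.4% and 62.5% in Cl.3, Cl.6, Cl.9, R1 and R2. Their change was -15.3, -23.4 and -36.1 points in the clones, -39.0 in R1 and -39.7 in R2, while that of the other pieces was -14.3, -21.3, -32.1, -31.1 and -31.7 points. The call chose these pieces for this difference, so the changes of called and other pieces are a description only. The count became 378 without Cl.3 (62.7% of all pieces tested), 41 without Cl.6 (42.3%) and 6539 without Cl.9 (97.6%). Without R1 or without R2 it was 0, when 4 and 2 pieces were called over all pieces. The part of Cl.9's count table and depth in this was not tested, and the shRNA and the kind of population cannot be told apart.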

How the results depend on the processing

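Over 22 levels and differences of level, 272 of 281 alternative values kept the direction and 9 reversed. No exact test in this design can reach 0.05, so only the direction was compared. With LMR base pairs removed too, the difference in fall between PMDs and HMDs was -1.34, between long and short pieces 1.64 and between low-density and high-density CpGs -2.66 points. With UMR base pairs kept, long minus short pieces was -0.28 at Knockdown, -1.18 at Recovery, 1.39 for the fall and -0.90 for the rise. With high-density CpGs only it was 1.45 for the fall and -0.10 for the rise. The causes were not tested. Alternatives restricted to pieces with reads, to CpG classes in the length comparison and to chromosomes other than 13 were added after the data were seen.

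Counts of called pieces fell with pieces of at least 20 kb because fewer were tested. At Knockdown 3467 of 3468 were lower in the clones and 3468 in the bulk populations, against 26116 and 26118 of all 26118 pieces. To Recovery 493 rose in the clones (14.2%, against 80.5% of all pieces) and 3468 in the bulk populations (against 100%). At Recovery 3447 were lower in the clones, against 26078 of all 26118. The interaction called 328 (9.46%, against 76.2%). Long minus short pieces then has no value. Leaving out single populations gave 16 to 3642 rises in the clones, 0 to 6539 interaction calls for a smaller fall in the clones and, without Cl.3, 6 for a larger fall, against 0 with all populations. The values over all pieces in these fits are given above. In the fit without the population block, the rises in the clones and the interaction calls were both 0, and that fit moved no other call count by over 1.5 times. Limma called 1 shared PMD piece lower at Recovery in the bulk populations, against 11 of all 42952 pieces. With no filter on reads 1 or 2 shared PMD pieces were called against the main direction in 4 contrasts, the same counts as over all pieces. The UMR share at Knockdown in the bulk populations was 88.2% in pieces with reads. With each base pair counted once, the PMD share was 38.4% (clones) and 0.597% (bulk) at Knockdown and 51.6% and 82.9% at Recovery. Counted so, it was 81.6% to 86.5% in the 5 populations at Baseline. Over all results, 373 alternative values were the same, 24 moved and 9 reversed. Depth limits single CpGs and pieces with few reads, and 5 populations limit every exact p.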
